A study of Mus musculus with 2 samples.

Results

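Tight junction genes were compared between cell populations sorted from mouse hair follicles. The members were 9 genes, taken by name: the claudins Cldn1, Cldn3, Cldn4, Cldn7, Cldn10, Cldn12 and Cldn23, occludin (Ocln) and the scaffold gene Tjp1, which encodes ZO-1. All 9 were among the 18193 genes that have at least 1 probe set assigned to that gene alone, and 17 of the 45101 probe sets of the array belong to them. Cells came from the back skin of CD-1 mice at postnatal day 4 that carried the K14-RFP and Sox9-EGFP transgenes, so both groups share strain, age and both reporters. The K14-RFP transgene is driven by the keratin 14 promoter, active in basal keratinocytes, and the Sox9-EGFP reporter marks cells that express the transcription factor Sox9. Early bulge cells, of the region that holds the follicle stem cells, were bright for both reporters. Non-bulge outer root sheath (ORS) cells, of the outermost epithelial layer, were bright for RFP and negative for EGFP. The sources used here do not say how many animals were pooled. There is 1 array for each population, so no value has a replicate check and no test or p-value is given.

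Tight junctions seal the space between neighbouring epithelial cells. Claudins are membrane proteins whose paired extracellular loops form either a barrier or ion-selective pores, occludin stabilises the strands they form, and ZO scaffold proteins in the cytoplasm tie the strands to actin. In skin, functional tight junctions are known from the granular layer of the epidermis and from inner layers of the hair follicle, while several of their proteins are also made in layers without a sealed junction.

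The values are MAS5 signal intensities, a per probe set brightness in arbitrary units. Array medians over all probe sets were 102 for early bulge and 88.0 for ORS. Signals below 57.8, the 40th percentile of all signals, were not ordered and are called below the floor. A ratio with 1 array below the floor was computed against the floor and is written as "at least". Ratios are early bulge over ORS, on the log2 scale unless a fold is stated, so negative values mean more signal in ORS. The gate genes were checked first. Sox9 was 6.01-fold higher in early bulge cells (signals 4061 and 676), and Krt14, at 14706 and 6609, was bright on both. Of 8 bulge markers 3 were higher by 2-fold or more on the early bulge array, the gate gene Sox9 among them. Cd34, a surface protein of adult bulge cells, was 9.75-fold higher on the ORS array.

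Of the 9 members, 1 was at least 2-fold apart: Cldn10, higher on the ORS array. Of the other 8, 7 had ratios of less than 2-fold, 4 of them brighter in early bulge and 3 brighter in ORS. Cldn7 has only a bound, at least 1.14-fold higher in early bulge cells, which leaves its fold unknown. Over all 13252 measured genes, 7.3% were past 2-fold towards early bulge and 4.78% towards ORS, 12.1% in all. A single member of 9 is close to that background share, so the count says nothing particular about these genes. Of 15 member probe sets above the floor on at least 1 array, none passed 2-fold towards early bulge (6.75% of all such probe sets did) and 1 towards ORS (4.44%). But 2 of the 15, that of Cldn7 and 1 of Cldn3, had only a bound towards early bulge, so their fold is unknown. The median log2 ratio of the 9 members, Cldn7 taken at its bound, was 0.02, and that of all measured genes was 0.04. Without replicates these ratios cannot be set against the spread between samples. Probe sets of 1 gene give only a technical yardstick: their log2 ratios differed with an SD of 0.48 over 9106 pairs.

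**Figure D1:**
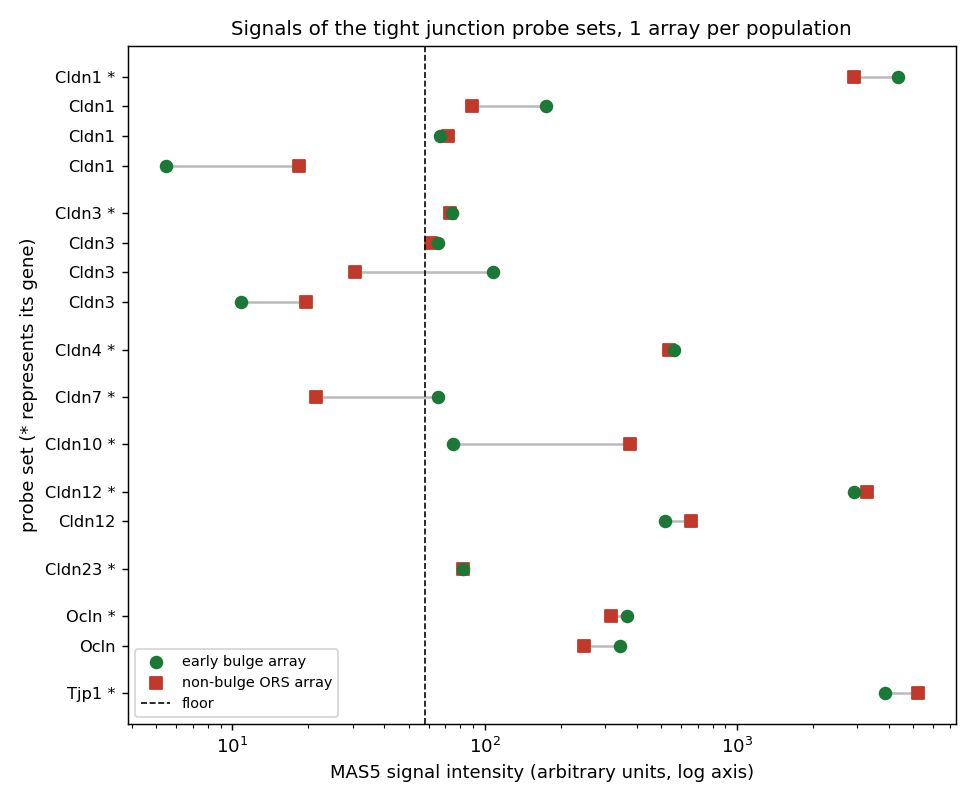
MAS5 signal intensity (log axis) of each of the 17 member probe sets on the early bulge array (circles) and the ORS array (squares), with the floor of 57.8 as a dashed line and an asterisk at the probe set that represents its gene. The pair of Cldn10 lies far apart with both points above the floor, whereas those of Cldn4, Cldn12, Cldn23, Ocln and Tjp1 lie close together.

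Cldn10, a claudin that forms ion-selective pores, had a signal of 74.7 in early bulge and 375 in ORS. The early bulge signal lay just above the floor and the ORS signal well above it. The ORS signal was 5.02-fold the early bulge signal (log2 ratio -2.33), and 126 of the 13252 measured genes (0.951%) had a ratio as low or lower. Cldn10 has 1 probe set on this array, of the type whose probes can match more than 1 transcript, so no further probe set could be compared. With the floor at the 60th percentile the early bulge signal fell below it and the log2 ratio became a bound of -1.13. Under median centring, quantile and loess scaling of the arrays it was -2.55, -2.50 and -2.48.

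Cldn10 is known to be transcribed from alternative start sites that give its a and b isoforms, and which of them its probe set measures was not determined. RefSeq start site windows (GRCm38.p6) of 300 bases were available for 8 of the 9 members, 13 windows in all. Both windows of Cldn10 are shown because it is the member that differed, and because their base composition is so unlike. They lie 67079 bases apart on the plus strand of chromosome 14. The upstream window, chr14:118787621-118787920, is 36.0% G or C with 4 CG dinucleotides, and the downstream window, chr14:118854700-118854999, is 72.0% G or C with 27. The median over all 32851 windows was 52.7% and 7 CG dinucleotides. Both are printed 5′ to 3′ with the CG dinucleotides in capitals.
Cldn10 upstream start: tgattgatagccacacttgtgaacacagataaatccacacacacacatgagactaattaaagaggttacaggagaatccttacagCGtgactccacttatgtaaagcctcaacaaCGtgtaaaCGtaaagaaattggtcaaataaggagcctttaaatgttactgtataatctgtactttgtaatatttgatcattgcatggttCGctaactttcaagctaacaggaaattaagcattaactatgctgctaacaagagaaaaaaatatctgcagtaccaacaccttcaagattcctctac
Cldn10 downstream start: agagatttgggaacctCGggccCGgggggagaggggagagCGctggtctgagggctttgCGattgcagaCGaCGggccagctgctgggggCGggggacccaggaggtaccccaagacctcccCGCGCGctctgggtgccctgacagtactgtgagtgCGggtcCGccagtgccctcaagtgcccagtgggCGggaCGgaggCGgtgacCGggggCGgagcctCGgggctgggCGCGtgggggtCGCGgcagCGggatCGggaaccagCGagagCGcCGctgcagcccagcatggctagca
The upstream window is poor and the downstream window rich in CG dinucleotides relative to that median. From which start the ORS signal came was not determined.

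Most measured markers of several other cell types were, like Cldn10, higher on the ORS array. A shared direction on these arrays cannot show that genes vary together. The part of such cells in the Cldn10 ratio was not tested. Of 8 dermal fibroblast markers, 7 passed 2-fold towards ORS, with summed signals of 5681 (early bulge) and 53152 (ORS). Their median was -3.64 (log2), with Pdgfra taken at its bound. Of 5 pericyte and smooth muscle markers 4 passed 2-fold in that direction, with summed signals of 3494 and 18347. Genes of the hair matrix, the dividing zone that builds the hair, and of the inner root sheath went the same way, 6 of 9 by at least 2-fold, with sums of 9601 and 28314. Among 4 measured markers of simple epithelium and Merkel cells, 2 were higher by 2-fold or more on the ORS array. Sums over all 6 on the array were 572 and 1075. In a bulk sample, more cells of a type and more RNA per cell cannot be told apart.

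**Figure D2:**
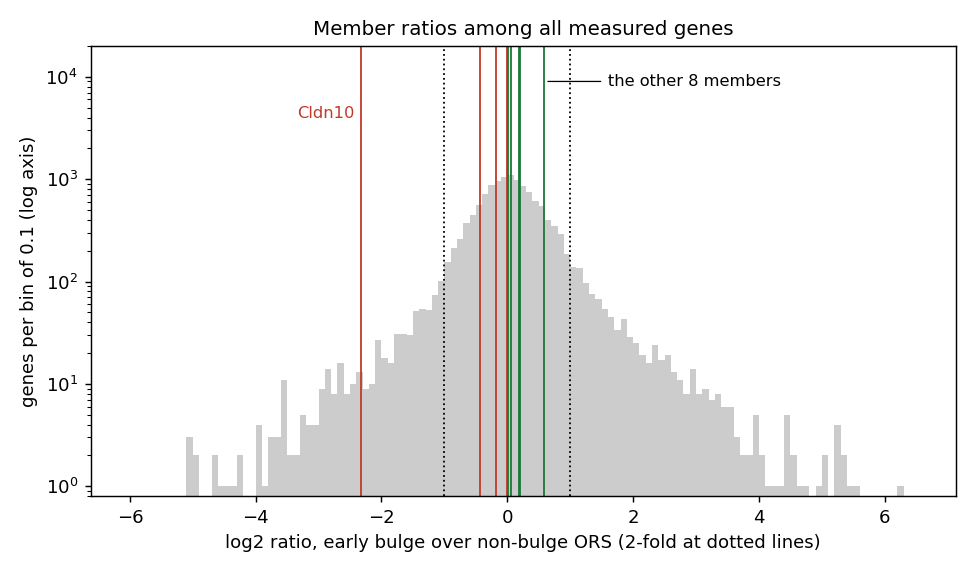
Histogram of log2 ratios (early bulge over ORS) of the 13252 measured genes on a log count axis, with the 9 members as solid lines, red below 0 and green above, and 2-fold as dotted lines. The line of Cldn10 at -2.33 lies in the left tail, and the other 8 members lie between -0.43 and 0.59, in the body of the distribution. Cldn7 is drawn at its bound of 0.18, a place set by the floor.

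Cldn1, the claudin on which the water barrier of mouse epidermis depends, gave signals of 4353 in early bulge and 2896 in ORS. The early bulge signal was 1.50-fold the ORS signal (log2 ratio 0.59), short of 2-fold, and 17.0% of measured genes had a ratio as high or higher. Of its 3 other probe sets, the first gave signals of 174 and 89.3 (log2 ratio 0.97). The second gave 66.7 and 71.4 (-0.10), and the last was below the floor on both arrays, at 5.46 and 18.5. So 2 of 3 ordered probe sets were higher on the early bulge array, and the remaining one, close to the floor, differed little. The ratio of the representing probe set stayed above 0 under all 3 scalings of the arrays, at 0.37 with median centring.

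Most measured markers of the upper follicle, sebaceous gland and differentiating epidermis were also higher on the early bulge array. Here too a shared direction cannot show that genes vary together, and the part of such cells in the Cldn1 values was not tested. All 6 upper follicle markers were higher by 2-fold or more there (median log2 ratio 3.80, resting on bounds, summed signals 38322 and 4951). So were 7 of 9 measured sebaceous gland markers (median 2.75, sums 25947 and 7520). Of 10 measured markers of the differentiating epidermis, 6 were too (median 1.48, sums of 24548 and 5705 over all 11 on the array). Basal keratinocyte markers shared this direction, 4 of 8 by at least 2-fold and all 8 at any size (median 0.94, sums 105339 and 54941).

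**Figure D3:**
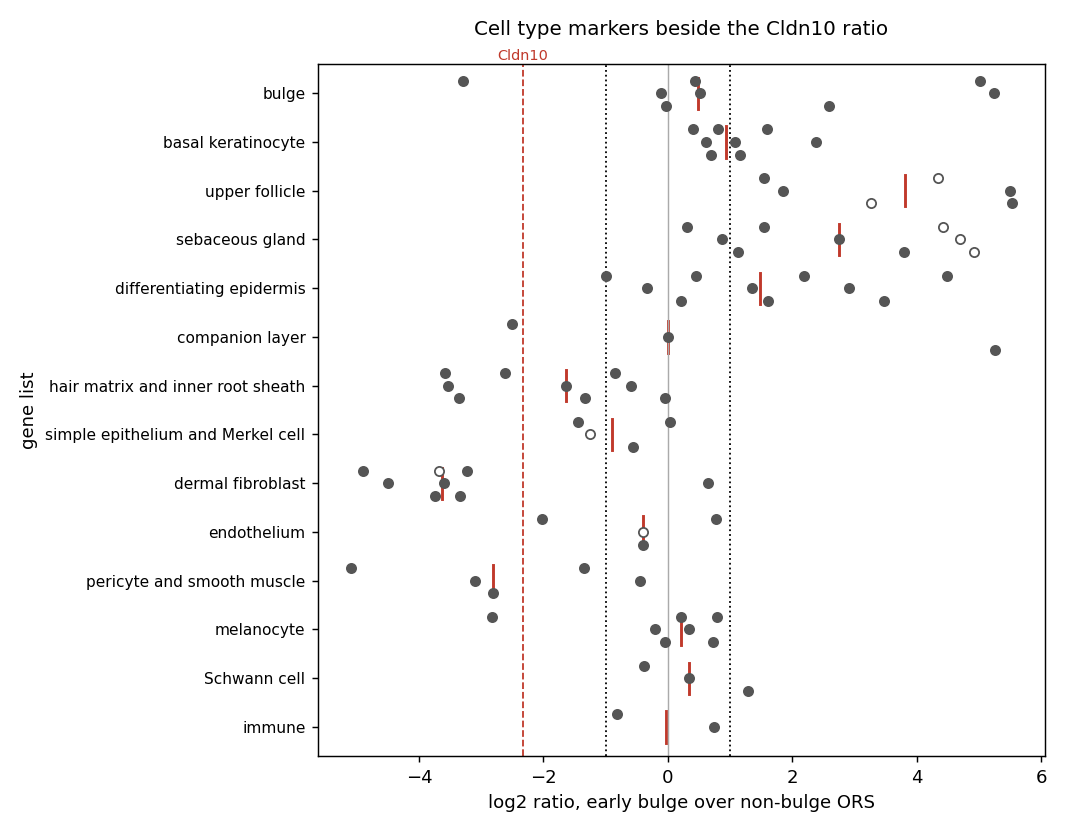
Log2 ratio (early bulge over ORS) of each measured gene of 14 marker lists, open circles being bounds with 1 array below the floor, short red bars the list medians, dotted lines 2-fold and the dashed line Cldn10. Dermal fibroblast and pericyte markers lie mostly left of -1, as Cldn10 does, and upper follicle and sebaceous gland markers lie mostly right of 1.

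The remaining lists had no common direction or few measured genes. Their summed signals cover all genes of a list on the array, also those below the floor on both arrays. Of 3 measured companion layer keratins 1 was 2-fold or more higher on each array (sums 7591 and 2622). Of 7 melanocyte markers 1 was higher by 2-fold or more on the ORS array (1797 and 2414), and of 3 Schwann cell markers 1 was higher by 2-fold or more on the early bulge array (498 and 339). The 2 measured immune markers were less than 2-fold apart (sums of 297 and 281 over all 5 on the array). Among 8 endothelial markers 4 were measured, with 1 higher by 2-fold or more on the ORS array (468 and 769), and the endothelial adhesion genes Pecam1 (9.41 and 11.9) and Cdh5 (22.6 and 24.8) were below the floor on both arrays.

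Among the other claudins of the group, those with a clear signal differed little. Cldn12, an atypical claudin, gave 2917 and 3288 on the early bulge and ORS arrays (log2 ratio -0.17). Its other probe set gave 518 and 657 (-0.34), so both were slightly higher on the ORS array. Cldn4, a barrier claudin of many epithelia, gave 562 and 537 (0.06), nearly equal. Its sign turned under median centring of the arrays (-0.15), which moved the median of all measured genes from 0.04 to -0.17. Under that centring 40.9% of the genes at least 2-fold apart were higher on the early bulge array, against 60.4% as reported here.

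Cldn3, Cldn7 and Cldn23 were dim. Cldn3, a close relative of Cldn4, was represented by a probe set with 74.1 in early bulge and 73.3 in ORS (log2 ratio 0.02). A second probe set gave 65.4 and 61.6 (0.09), and one below the floor on both arrays 10.9 and 19.7. The last gave 108 on the early bulge array against 30.6, below the floor, on the ORS array, which is at least 1.87-fold higher. Of the 3 ordered probe sets, 2 differed little and 1 was higher on the early bulge array, and the sign of the representing one turned under each of the 3 other scalings (between -0.24 and -0.20). Cldn7, known to bind the adhesion protein Epcam, gave 65.7 on the early bulge array and 21.5, below the floor, on the ORS array, at least 1.14-fold higher. Its size depended on the floor: with none the log2 ratio was 1.61, and with a pseudocount of 16 it was 1.12. Cldn23 gave 81.8 and 82.1, nearly the same signal (log2 ratio -0.00426).

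Occludin and ZO-1 also differed by less than 2-fold. Ocln gave 365 in early bulge and 318 in ORS (log2 ratio 0.20). Its other probe set gave 345 and 248 (0.48). Both probe sets were somewhat higher on the early bulge array, and the first turned to -0.02 under median centring. Tjp1, which also sits at adherens junctions and in cells without tight junctions, gave 3876 and 5211 (log2 ratio -0.43). Its 1 probe set was higher on the ORS array under every setting that measured it, between -0.64 and -0.39. Of all measured genes, 18.7% had a ratio as low as that of Tjp1 or lower.

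**Figure D4:**
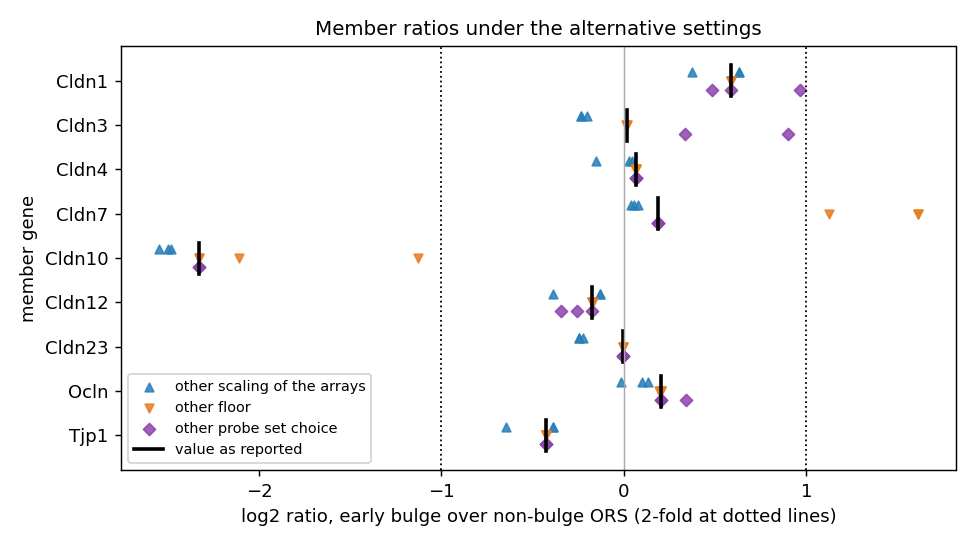
Log2 ratio (early bulge over ORS) of each member as reported (black bar) and under other scalings of the arrays (blue triangles), other floors (orange triangles) and other choices of probe set (purple diamonds), with 2-fold as dotted lines. Cldn10 stays left of -1 wherever it was measured, and Cldn7 crosses 1 with other floors.

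Of 75 measured other genes of the junction, 65 did not reach 2-fold: 59 had a ratio under it, and 6 had only a bound under it, so their fold is unknown. The 8 lists held 90 genes, 82 of them on the array. Past 2-fold were 4 genes towards early bulge (5.33%) and 6 towards ORS (8%), against 7.3% and 4.78% of all measured genes, and the median log2 ratio was 0.11. The 4 genes lay only just past 2-fold, with log2 ratios of at most 1.11, and under median centring none of them reached it. The count towards ORS was 2 with the floor at the 60th percentile, which leaves 61 genes measured. As reported here, the 6 genes towards ORS were Ildr2, Magi3 and 4 from the list of repressors of epithelial junctions given below. No other list had more than 1 gene past 2-fold towards ORS.

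None of 7 measured further claudins reached 2-fold, but Cldn13, Cldn14 and Cldn18 had only a bound, and 6 more were below the floor on both arrays. Cldn8, a claudin of tight epithelia, was the one with a clear signal, at 1420 in early bulge and 766 in ORS (log2 ratio 0.89). Cldn14 was at least 1.79-fold higher in early bulge cells (103 and 42.8) and passed 2-fold with the floor at the 20th percentile, with no floor and with the pseudocount (log2 ratios 1.27, 1.27 and 1.02), and Cldn22 had a log2 ratio of 0.44. Cldn5, the claudin of endothelium, gave 57.8 and 89.2 (-0.63), the first barely above the floor.

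Of 11 measured other membrane proteins of the junction, 1 reached 2-fold, and Jam2 and Ildr1 had only a bound under it. Ildr2, of the angulin family that sits where 3 cells meet, gave 106 and 313, or 2.95-fold higher in ORS cells, and its other measured probe set gave 12.9 and 85.4, a bound of -0.56. The MARVEL-domain protein genes Marveld3 and Marveld2 were at log2 ratios of 0.55 and -0.36, with a second probe set of Marveld3 at -0.20. The adhesion receptor gene Cxadr gave 2307 and 1607 (0.52), with its other measured probe sets at 0.52, 1.35 and 0.45.

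Of 14 measured other plaque proteins, 1 was 2-fold or more higher on each array. The scaffold gene Magi3 gave 276 and 666, or 2.41-fold higher in ORS cells. Cgnl1, which encodes paracingulin, gave 645 and 299, or 2.16-fold higher in early bulge cells. Its other measured probe sets gave -0.21 and bounds of 0.54 and 0.16. Tjp3, which encodes ZO-3, was at least 1.97-fold higher in early bulge cells (114 and 52.6). Afdn, the afadin gene of adherens junctions, gave 5593 and 3075 (0.86).

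Of 13 cell polarity genes, 12 were less than 2-fold apart. Mpp5, which encodes the Crumbs complex protein Pals1, gave 659 and 327 (2.02-fold higher in early bulge cells), and its other probe sets gave 1.28 and 1.41, the same direction. Dlg1, Pard3b and Pard6b had log2 ratios of 0.55, -0.50 and -0.37. Among 7 measured claudin partners and membrane proteases, Prss8, a protease gene needed for the epidermal barrier, was 2.04-fold higher in early bulge cells (246 and 120). Epcam gave 4754 and 2478 (0.94) and 1289 and 757 (0.77) on its 2 probe sets, both higher on the early bulge array. The protease inhibitor genes Spint2 and Spint1 had log2 ratios of 0.20 and 0.16.

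**Figure D5:**
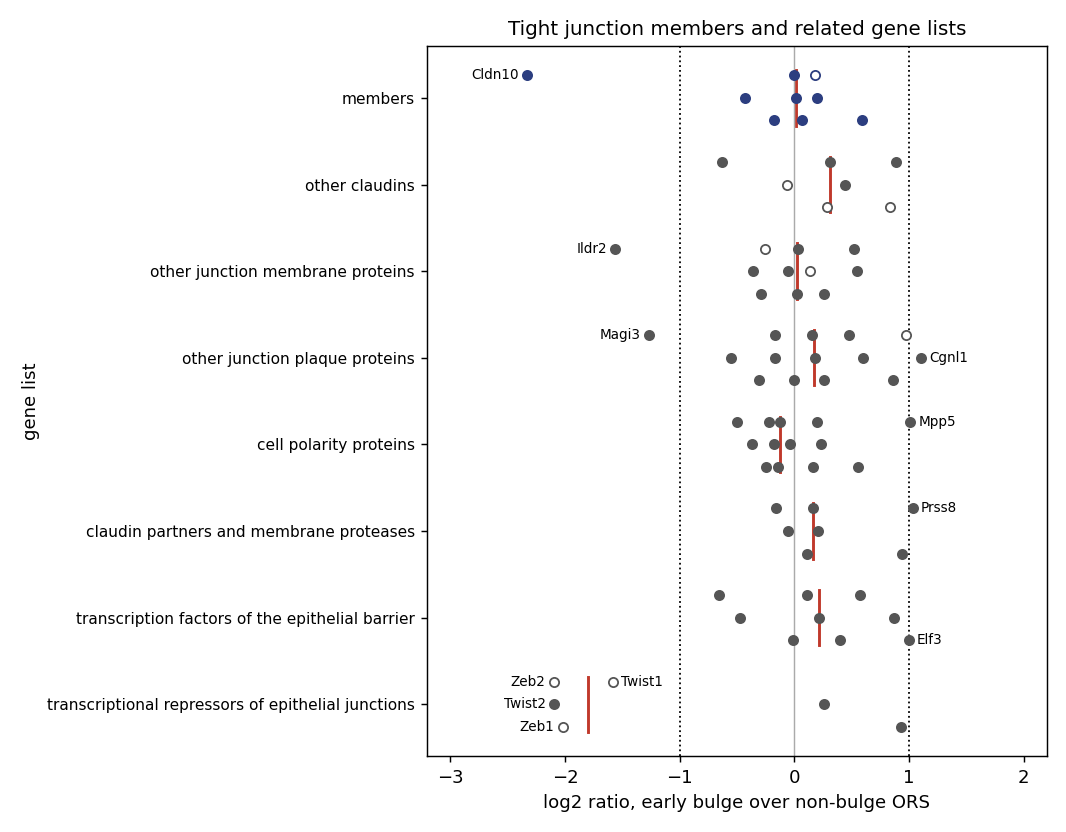
Log2 ratio (early bulge over ORS) of each measured gene of the members (blue) and related lists (grey), open circles being bounds with 1 array below the floor, red bars list medians and dotted lines 2-fold. Most genes lie between the dotted lines, and the named ones beyond -1 include Cldn10, Ildr2, Magi3 and 4 repressors.

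Most repressors of junction genes had more signal in ORS. Of 6 genes that encode repressors of epithelial junctions, 4 passed 2-fold towards ORS and none towards early bulge. Over all measured genes those shares were 4.78% and 7.3%. The median log2 ratio of the 6 was -1.80, with Zeb1, Zeb2 and Twist1 taken at their bounds. Zeb2 (47.0 and 247) was at least 4.28-fold higher in ORS cells. Zeb1 (57.4 and 234) was at least 4.05-fold, Twist1 (5.21 and 173) at least 2.99-fold and Twist2 (113 and 485) 4.28-fold higher there. The weakest further probe sets gave -0.26 for Zeb2 and a bound of -0.19 for Zeb1. With the floor at the 60th percentile the bounds of Zeb1, Zeb2 and Twist1 shrank to -0.45, -0.53 and -0.00643, and Twist2 gave a bound of -1.50. All 4 of these genes are also known from dermal fibroblasts, whose markers were higher on the same array as given above, and the part of those cells was not tested. Snai2, a repressor made in basal keratinocytes, was bright on both arrays at 12767 and 10675 (0.26). Snai1 gave 111 and 58.6 (0.93), the second barely above the floor. Summed signals of the 6 genes were 13102 in early bulge and 11874 in ORS, most of it from Snai2.

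Of 9 transcription factors that act for the epithelial barrier, 8 were less than 2-fold apart and the median was 0.22. Elf3 gave 302 and 151, or 2.00-fold higher in early bulge cells, and fell short of 2-fold under each of the 3 other scalings. Klf4, needed for the skin barrier, gave 15266 and 8379 (0.87), and its other probe set gave 4359 and 1099 (1.99), both higher on the early bulge array. Grhl2, an activator of claudin genes in other epithelia, gave 1669 and 1120 (0.58). Ovol1, a factor of epidermal differentiation, gave 445 and 703 (-0.66), higher on the ORS array.

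The start site windows were searched on both strands for 3 motifs, none of which contains another. The hexamer CAGGTG, which Snail and Zeb factors bind, was in 5 of the 13 member windows, those of Cldn3, Cldn4, Cldn7 and Ocln, and in 20.2% of all windows. Neither AACCGGTT, a Grainyhead-like motif (0.146% of all windows), nor TATAAA, the TATA box (13.6%), was in any of the 13. The window of Cldn4 (chr5:134946885-134947184, minus strand, GRCm38.p6) is shown as an example with a match on each strand. Its matches to CAGGTG or the reverse complement are in capitals.
Cldn4: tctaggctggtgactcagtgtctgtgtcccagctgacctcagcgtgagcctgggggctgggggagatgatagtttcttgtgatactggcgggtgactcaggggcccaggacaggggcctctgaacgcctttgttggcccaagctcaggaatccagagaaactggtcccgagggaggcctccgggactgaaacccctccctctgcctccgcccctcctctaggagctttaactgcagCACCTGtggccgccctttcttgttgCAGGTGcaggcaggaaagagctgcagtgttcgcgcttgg
The windows of some members overlap each other, so their matches are not independent. A match is a description of letters, and Cldn4, with both matches, had nearly equal signals in both populations.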

How the data were processed

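Total RNA of the 2 sorted populations was hybridised to 1 Affymetrix expression array each. The authors deposited a linear signal intensity for each probe set. It was computed with MAS5, per the submitters' processing notes, which also name Affymetrix Expression Console and no version. After trimming 2% from each end, the mean was 500.0 on both arrays, so both had been scaled to 1 target. Low MAS5 values are noisy. The number of arrays limits the precision. Genome build and probe-level steps are not given in the sources used here.

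Probe sets were named from the platform annotation, and 34945 non-control probe sets had 1 gene symbol, 34741 of them with an Entrez ID in the RefSeq table. The probe set whose mean log2 signal over both arrays was highest stood for its gene. It was measured if at least 1 array reached the floor. The members and all gene lists were chosen with earlier results of these data known. Named genes were all members and up to 4 measured genes of each related list with the largest absolute log2 ratio. Snai1 and Snai2 were named after their values were seen, as were marker genes. Some list genes were not analysed here, and 1 of the 8 related lists enters the joint counts but is not reported here on its own. No likeness of pattern between genes was computed, since 2 arrays give 1 ratio per gene. Alternatives were other floors (20th and 60th percentile, none, a pseudocount of 16), median centring, quantile and loess scaling (span 0.4), the mean over probe sets, and leaving out probe sets with a suffix _s, _x or _a. The procedure was tested on simulated arrays. Python 3.11.15, pandas 2.3.3 and statsmodels 0.14.6 were used.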

Additional observations from a re-analysis of the deposited data

How the results depend on the processing

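Of the ratios of single genes under the alternatives, 375 moved by less than the SD between probe sets of a gene and 22 by more, and none past 2-fold changed sign. Part of the 375 could not move. Another floor leaves a gene that is bright on both arrays unchanged, and the mean over probe sets leaves a gene with 1 probe set unchanged. The count is therefore no measure of how stable the ratios are. The number of members past 2-fold towards early bulge was 0 and became 1 (Cldn7) with the floor at the 20th percentile, with no floor and with the pseudocount. The number higher on the ORS array was 1 and became 0 without _s, _x and _a probe sets, which leaves 6 members and removes Cldn10. The members' median log2 ratio of 0.02 became -0.20 with median centring. The number of related genes past 2-fold towards early bulge, 4, was 7 with the 20th percentile floor and with none, 2 with the 60th percentile floor, 0 with median centring and 1 with quantile or loess scaling. The number higher on the ORS array, 6, was 2 with the 60th percentile floor. A representing probe set chosen on signals after the floor, an alternative added after seeing the data, moved Cldn3 to a bound of 0.90. Over all genes the counts of 968 and 634 past 2-fold towards early bulge and ORS were 1870 and 984 with the 20th percentile floor, 2731 and 1601 with none, 616 and 426 with the 60th, and 706 and 1019 with median centring. Signals near the floor limit Cldn3, Cldn7 and Cldn23, and the early bulge signal of Cldn10 also lay just above it. No paired analysis was possible because each population has 1 array.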

Other observations

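Several members lie beside another junction gene in the RefSeq gene order, counting protein-coding genes. Cldn3 and Cldn4 are neighbours on chromosome 5, and their representing probe sets had nearly equal signals in the 2 populations (log2 ratios 0.02 and 0.06), although Cldn3 was dim and another of its probe sets gave 108 and 30.6, at least 1.87-fold higher in early bulge cells. Ocln and Marveld2, which encode occludin and its relative tricellulin, are neighbours on chromosome 13 and had ratios of 0.20 and -0.36, of opposite sign and less than 2-fold. Cldn16 follows Cldn1 on chromosome 16 and was below the floor on both arrays (31.5 and 22.6), while Cldn1 was bright on both. The neighbours of Cldn10 on chromosome 14, Abcc4 and Dzip1, are not junction genes.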
